A study of Homo sapiens with 24 samples.

Results

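HBL-1 cells treated with dimethyl fumarate (DMF) for 48 h were compared with control cells at 6 h, the earliest control sampled, to see where treated cells ended relative to the state near the start of the culture. HBL-1 is an established cell line from a human diffuse large B-cell lymphoma of the activated B-cell-like type. The comparison used 6 of the 24 RNA-seq libraries of the series, chosen by the treatment and time in their labels: 3 of DMF at 48 h and 3 of control at 6 h. All cells grew in RPMI-1640 medium with 20% fetal calf serum, penicillin, streptomycin and the antimycoplasma agent Plasmocin. The DMF group had 20 µM of DMF dissolved in DMSO, and the control group had DMSO alone. These groups differed in both treatment and time, so the 3 control libraries of 48 h were read beside them to give the level that untreated culture reached over the same time. The series covers a single line, and its labels do not say whether replicates were separate cultures, so each p-value measures only the spread between these libraries, which may be technical.

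DMF is a small electrophile that reacts with cysteine residues, including those of KEAP1, the adaptor that marks the transcription factor NRF2 for degradation. NRF2 freed from KEAP1 binds antioxidant response elements and switches on genes for glutathione and thioredoxin metabolism, NADPH supply, quinone reduction and iron storage. Activated B-cell-like lymphoma cells depend on chronic NF-kB activity that comes from B cell receptor signalling, and often on STAT3 driven by their own IL-6 and IL-10. The title of the series also names ferroptosis, an iron-dependent death by lipid peroxidation that glutathione and the peroxidase GPX4 hold back.

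Expression was measured as RSEM's expected counts per gene, with 23097873 to 32403460 counts in each control library of 6 h and 28595410 to 35146994 in those of 48 h. Of the DMF libraries, replicates 2 and 3 had 34157349 and 32229416 counts and replicate 1 had 2870751, so genes of low level rest mostly on replicates 2 and 3. The B cell markers MS4A1, CD79A, CD79B, PAX5 and IRF4 were present in every library, with means between 396 and 1924 CPM, which are counts scaled to the size of the library. Of 15 T and NK cell markers, 2 passed the filter on low counts, with a summed level of 1 to 1.29 CPM in control at 6 h and 0.878 to 1.63 CPM with DMF, and CD3G, CD2 and CD8B were at 0 in all 9 libraries. Of 12 myeloid markers 4 passed, with summed levels of 16.4 to 19.4 and 24.7 to 28.4 CPM, and S100A8, S100A9 and CD163 were at 0. MRC1 made up most of the myeloid level in every library. CD68 went from 4.02, 4.27 and 3.46 CPM in control at 6 h to 8.8, 9.11 and 9.66 with DMF. Of the 4, 2 were called higher with DMF than in control at 6 h and 1 lower, but 1 and 0 in DESeq2. Of 14 epithelial and stromal markers 4 passed, with 30.7 to 35.2 and 40 to 49.6 CPM, most of it PECAM1, and KRT5, DCN and LUM were at 0. In bulk libraries, a change in which cells of the culture survive and a change in RNA per cell cannot be told apart.

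Treated cells at 48 h were not back at the starting state. Of 13128 genes tested, 4663 were higher with DMF at 48 h than in control at 6 h (35.5%) and 4586 were lower (34.9%) at an adjusted p under 0.05. At least 2-fold changes numbered 1520 higher (11.6%) and 673 lower (5.13%), and the 3 libraries of each group did not overlap for 72.7% of genes. Untreated culture moved as far by the same measures, with 38.2% of genes higher and 36.3% lower in control at 48 h than at 6 h. Of all genes tested, 12.5% were higher and 7.57% lower there by at least 2-fold. The median absolute log2 fold change was 0.44 for DMF at 48 h and 0.48 for control at 48 h, both against control at 6 h. Directly between DMF and control at 48 h, 32.6% of genes were higher and 30.1% lower, and 5.32% and 5.43% were so by at least 2-fold. The balance of higher and lower genes depended on the scale. On TPM, which divides by transcript length, 5280 genes were higher and 3127 lower with DMF at 48 h than in control at 6 h. The median over all genes shifted from 0.00 to 0.10 on the log2 scale. TPM were also used without the TMM scaling between libraries that the counts had. The TMM factors were 0.953 to 0.955 in control at 6 h and 1.06 to 1.07 with DMF, which lowers DMF relative to control on the count scale. The part of each difference in the shift was not tested. Of the genes described as near the start, HMOX1, SLC7A11, MS4A1, CD22, ALOX5, MGAT3, BIK, CTSA, LAMP1, TNIP1, TRIB3 and HSPA1B passed the test on TPM, each above the start. Some misses also depended on fitting control at 48 h with the other groups. In a fit of only the 2 groups compared, HMOX1, LAMP1 and TRIB3 passed above the start. ACSL4, GCLC, HSPA5, ICAM1 and ZMPSTE24 passed below it, with log2 fold changes from -0.15 to -0.08.

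Across the gene lists there were some whose members ended beyond the start with DMF, some that stayed near the start with DMF while untreated culture moved, and some that moved the same way in both. The largest list medians for DMF at 48 h were those of hypoxia-inducible genes (0.89), NRF2 targets (0.62) and lysosomal genes (0.62), beside 0.003 for all genes. The lowest were ribosome biogenesis (-0.99), mitosis (-0.42) and DNA replication (-0.40). Counts of list members called with DMF are to be read beside the shares of all genes tested, 35.5% higher and 34.9% lower. The comparisons of DMF and control at 48 h share the control libraries of 6 h, so their values are set side by side. Counts of genes called in both are descriptions without a test.

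**Figure D1:**
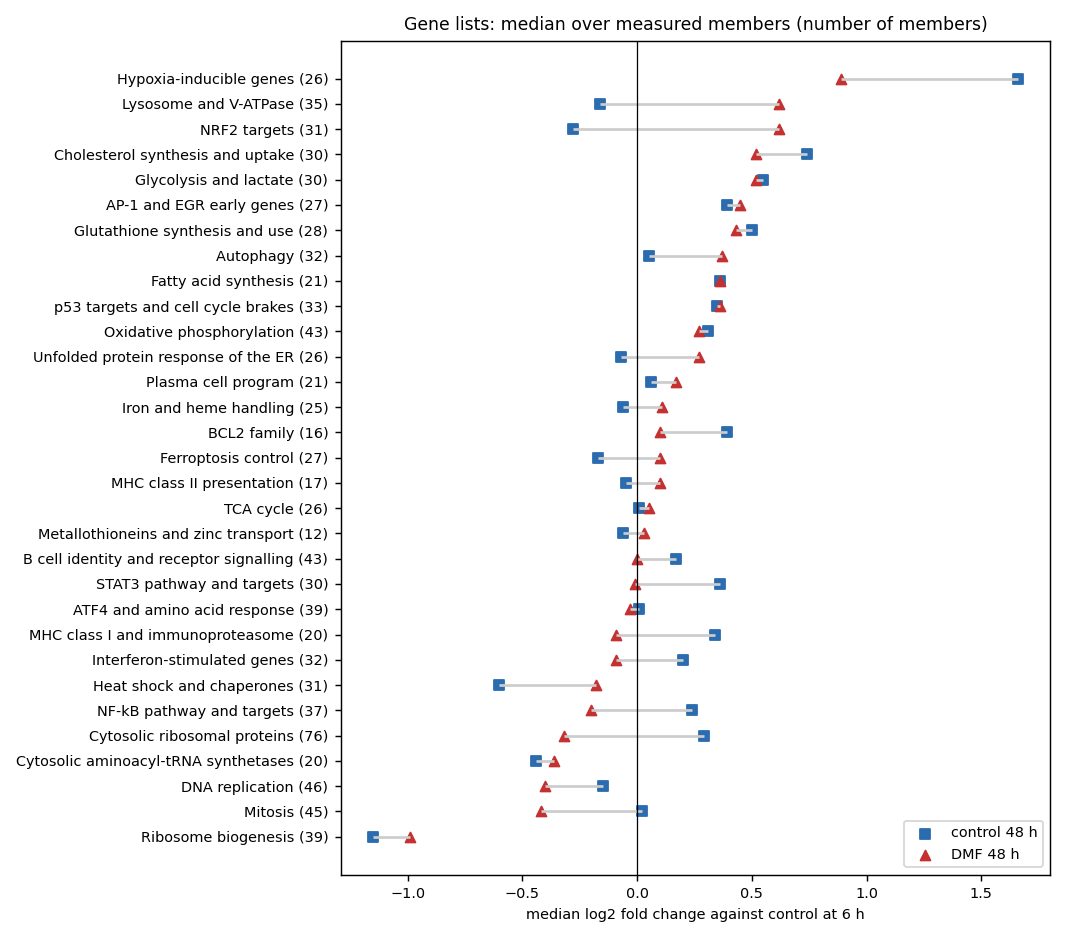
Median log2 fold change against control at 6 h (horizontal axis) over the measured members of 31 gene lists (rows, with the number of members), for DMF at 48 h (triangles) and control at 48 h (squares). NRF2 targets stand at 0.62 with DMF and -0.28 in control, while ribosome biogenesis lies near -1 in both.

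NRF2 targets ended above the start as a group. Of 31 measured targets, 22 rose and 2 fell, 11 of them rising at least 2-fold, with a median log2 fold change of 0.62. In untreated culture the same list had a median of -0.28, with 9 members higher and 16 lower at 48 h. At the same time of 48 h, DMF cells had 25 members higher and 4 lower than control (median 1.11). The summed level of the list was 5623 to 5752 CPM in control at 6 h, 3999 to 4428 in control at 48 h and 12124 to 12946 with DMF, much of it ferritin.

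OSGIN1, an oxidative stress-induced growth inhibitor on chromosome 16, 83948282 to 83966332 (GRCh38), stood at 1.08, 0.818 and 1.1 CPM in the control libraries of 6 h, 0.704, 0.903 and 0.993 in those of 48 h and 23.2, 22.6 and 24.8 with DMF. Every DMF library was far above every control of either time, which overlapped each other. With DMF it stood 23.1-fold (log2 fold change 4.53 ± 0.13, adjusted p = 1.9e-14) above the start, the value after ± being the standard error of the fit of 3 libraries per group. NQO1, a quinone reductase that is a standard marker of NRF2 activity (chromosome 16, 69706996 to 69726951), read 9.17, 9.22 and 9.09 CPM at 6 h, 3.73, 3.99 and 3.29 in control at 48 h and 88.7, 87.6 and 86 with DMF. Its control level fell over time while the treated level rose 9.52-fold (log2 fold change 3.25 ± 0.07, adjusted p = 5.7e-16).

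Both ferritin chains ended above the start. FTL, the light chain of the iron store, was at 1148, 1133 and 1121 CPM in control at 6 h and 919, 1001 and 879 at 48 h, against 5669, 5987 and 6298 with DMF. The 3 groups did not overlap, and FTL rose 5.28-fold (log2 fold change 2.40 ± 0.06, adjusted p = 9.4e-16). FTH1, the heavy chain with the ferroxidase centre, had 444, 435 and 429 CPM at the start and 992, 1055 and 1042 with DMF, a rise of 2.36-fold (log2 fold change 1.24 ± 0.06, adjusted p = 6.8e-12). Ferritin genes have many processed pseudogenes, and how the authors' counting shared such reads was not given in the sources used here.

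TXNRD1, thioredoxin reductase, had 336, 325 and 325 CPM at 6 h, 191, 181 and 193 in control at 48 h and 581, 622 and 602 with DMF (1.83-fold above the start, adjusted p = 2.5e-11). GCLM, the modifier subunit of the enzyme that starts glutathione synthesis, had 27.1, 27 and 28.3, 17.8, 17.2 and 19.3 and 42.4, 43.5 and 43.8 CPM in the same order of groups (1.58-fold above the start, adjusted p = 4.4e-08). SRXN1, the sulfiredoxin that repairs peroxiredoxins, had 38.9, 36.4 and 37.2, 11.9, 11.9 and 10.8 and 46.6, 52.5 and 53.5 CPM (1.39-fold, adjusted p = 3.1e-06). In each of these 3 genes the DMF libraries lay above both controls and the controls of 48 h lay below those of 6 h.

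Antioxidant response elements contain the letters TGACNNNGC, and GCLM and TXNRD1 are shown, chosen after the matches were seen, because their proximal promoters hold that string. The windows are the 100 bases before the first listed start of each gene in RefSeq (GRCh38.p14), 5′ to 3′ on the strand of the gene, with the matched string in capitals, read on either strand.
GCLM (chr1:93909431-93909530, minus strand): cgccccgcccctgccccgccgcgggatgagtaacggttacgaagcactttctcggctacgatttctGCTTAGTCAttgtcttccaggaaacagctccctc
TXNRD1 (chr12:104215679-104215778, plus strand): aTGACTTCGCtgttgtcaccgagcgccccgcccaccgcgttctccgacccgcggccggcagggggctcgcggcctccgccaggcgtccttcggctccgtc
The string occurred in the 250 bases before the start in 4 of the 21 NRF2 targets with a listed promoter and in 12% of all 9966 promoters searched. It shares its leading TGAC with the AP-1 string TGACTCA, and a match describes the letters, not a site in use.

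Another set of NRF2 targets was close to the start on the count scale, while untreated culture was well below it. HMOX1, heme oxygenase 1, which opens the heme ring and releases iron, was at 207, 197 and 189 CPM in control at 6 h and 202, 221 and 215 with DMF at 48 h, and these libraries overlapped (log2 fold change 0.11 ± 0.05, adjusted p = 0.067, and 0.036 without the shallow replicate 1 of DMF). Control at 48 h read 34.2, 37.2 and 35.1 CPM, below all of them, so that DMF stood 6.02-fold above the control of the same time (adjusted p = 5.2e-16). GCLC, the catalytic subunit for glutathione synthesis, was at 282, 280 and 283 CPM at 6 h, 86.6, 84.5 and 85.5 in control at 48 h and 268, 267 and 263 with DMF. Its DMF libraries lay just under those of the start, without passing the test (adjusted p = 0.097), and 3.11-fold above control at 48 h.

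SLC7A11, the cystine carrier that feeds glutathione synthesis and a main guard against ferroptosis, was at a lower level. It read 8.33, 7.32 and 8.73 CPM at 6 h, 4.43, 3.52 and 3.97 in control at 48 h and 10.8, 8.26 and 8.75 with DMF. The DMF and 6 h libraries overlapped (log2 fold change 0.09 ± 0.12, adjusted p = 0.48), and DMF was 2.2-fold above control at 48 h (adjusted p = 3.7e-07). The interval of its difference from the start, 95% of the fit, ran from -0.15 to 0.34 on the log2 scale. On TPM both genes passed the test against the start, SLC7A11 at 0.35 (adjusted p = 0.0094) and HMOX1 at 0.25 (adjusted p = 0.00085). Of the 31 targets, 7 missed the threshold against control at 6 h in either direction.

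**Figure D2:**
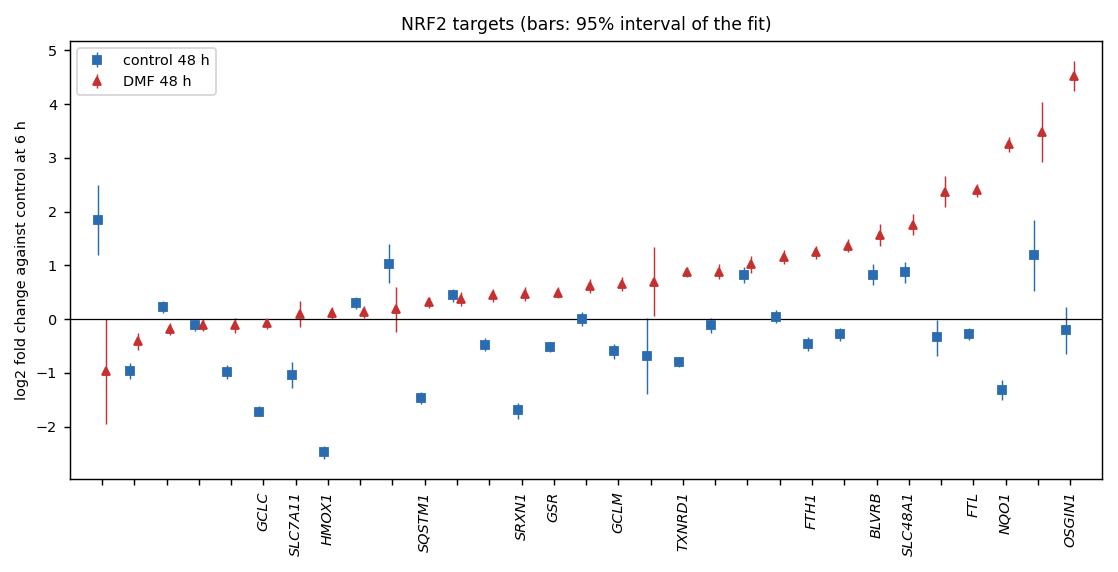
Log2 fold change (vertical axis; genes named in the text are labelled) against control at 6 h for each of the 31 measured NRF2 targets, ordered by the value with DMF, for DMF at 48 h (triangles) and control at 48 h (squares), with 95% intervals of the fit. OSGIN1 lies at 4.53 with DMF and -0.21 in control, HMOX1 at 0.11 and -2.48.

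The wider set of ferroptosis genes held members that rose and members that fell. Of 27 measured members, 11 rose and 5 fell (median 0.10), beside 35.5% and 34.9% of all genes tested. The largest rises were the ferritins, and in untreated culture 10 members rose and 14 fell (median -0.17). On TPM, 17 members were higher and 4 lower with DMF (median 0.25). GPX4, the peroxidase that reduces lipid hydroperoxides, had 161, 152 and 164 CPM at 6 h, 194, 217 and 190 in control at 48 h and 135, 129 and 137 with DMF. The treated level lay below both controls, 1.2-fold below the start (adjusted p = 0.00068). AIFM2, which encodes the ubiquinone reductase FSP1, had 33.3, 35.6 and 32.8 CPM, 17.6, 21 and 16.5 and 48.9, 41.2 and 39.5 in the same order of groups, 1.23-fold above the start (adjusted p = 0.0047).

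Lipid-side genes and the iron importer moved in different directions. ACSL4, which loads polyunsaturated fatty acids into phospholipids, was at 216, 209 and 223 CPM at 6 h and 203, 205 and 191 with DMF and did not pass the test (adjusted p = 0.064). TFRC, the transferrin receptor that imports iron, fell from 695, 677 and 702 CPM to 526, 468 and 471 (1.42-fold lower, adjusted p = 3.8e-07), a level that overlapped with control at 48 h, 566, 489 and 534 CPM. ALOX5, a lipoxygenase, was at 4.76, 4.95 and 4.66 CPM at 6 h and 5.22, 5.41 and 5.65 with DMF (adjusted p = 0.097), while control at 48 h had 18.4, 18.8 and 20.2 CPM. FADS2, a fatty acid desaturase, rose from 17, 17.1 and 15.2 to 34.2, 38.5 and 39.9 CPM with DMF and reached 105, 117 and 110 CPM in control.

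Glutathione and heme genes moved in untreated culture too. Of 28 measured glutathione genes, 18 rose and 4 fell with DMF (median 0.43) and 18 rose and 6 fell in control at 48 h (median 0.50). GSTP1, a glutathione transferase, was at 45.8, 45.2 and 44.5 CPM at 6 h, 58.4, 71.6 and 57.5 in control at 48 h and 128, 132 and 142 with DMF, 2.99-fold above the start (adjusted p = 4.8e-12). GSR, glutathione reductase, moved in opposite directions: 157, 156 and 157 CPM at 6 h, 109, 111 and 110 in control at 48 h and 222, 213 and 226 with DMF. Of 25 iron and heme genes, 11 rose and 7 fell with DMF, beside 35.5% and 34.9% of all genes tested. Among them SLC48A1, a heme transporter of the lysosome, rose 3.38-fold and BLVRB, a biliverdin reductase, 2.97-fold, and both also rose in control, 1.82-fold and 1.78-fold.

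On the count scale NF-kB genes as a list ended below the start, and against the direction of untreated culture. Of 37 measured members, 20 fell and 11 rose with DMF at 48 h (median -0.20), beside 34.9% and 35.5% of all genes tested. On TPM the balance was closer, with 16 lower and 12 higher (median -0.06). In control at 48 h, 24 rose and 6 fell (median 0.24), and DMF had 25 members lower and 6 higher than control of the same time (median -0.63). Summed over the list, the level was 3944 to 3994 CPM at 6 h, 5125 to 5213 in control at 48 h and 3110 to 3140 with DMF, with no overlap of the 3 groups.

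The largest fall was in CCL22, a chemokine gene induced by NF-kB (chromosome 16, 57358772 to 57366190). It read 64.7, 66.5 and 67 CPM in control at 6 h, 45.6, 48.1 and 48.7 at 48 h and 3.26, 5.69 and 5.03 with DMF. All DMF libraries lay far below both controls, and CCL22 was lower by 12.6-fold (log2 fold change -3.65 ± 0.09, adjusted p = 9.4e-16). NFKBIA, the inhibitor IkB-alpha that NF-kB itself induces (chromosome 14, 35401511 to 35404749), was at 112, 111 and 108 CPM at 6 h and 111, 122 and 108 in control at 48 h, which overlapped, and at 33.9, 32.5 and 32.3 with DMF. It was 3.39-fold below the start (adjusted p = 1e-13).

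Other feedback genes and receptors rose in untreated culture and fell with DMF. TNFAIP3, the ubiquitin-editing enzyme A20 (chromosome 6, 137867188 to 137883312), had 116, 116 and 111 CPM at 6 h, 204, 196 and 215 in control at 48 h and 40.8, 41.9 and 41.4 with DMF. The treated level was 2.76-fold below the start (adjusted p = 4.1e-13) and 4.94-fold below control at 48 h. EBI3, a cytokine subunit, had 58.5, 58.7 and 60, 125, 145 and 133 and 13.7, 16.9 and 17.6 CPM in the same order, 3.49-fold below the start (adjusted p = 1e-12). CD40, the receptor for T cell help, had 103, 104 and 107, 148, 166 and 151 and 45.7, 42.2 and 46 CPM, 2.36-fold below the start (adjusted p = 9.4e-12). In these 3 genes the groups were fully separated, with control at 48 h highest and DMF lowest.

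The genes of NF-kB subunits fell less. RELB and NFKB1 were 2.06-fold and 1.56-fold below the start (adjusted p = 7e-11 and 1.1e-08), REL was 1.45-fold below it (adjusted p = 0.0087, but 0.063 in DESeq2 and 0.18 on TPM), and RELA, with 126, 122 and 125 CPM at 6 h and 113, 121 and 115 with DMF, did not pass the test (adjusted p = 0.12). BIRC3, an inhibitor of apoptosis, was at 61.3, 60.7 and 58.6 CPM at 6 h, 175, 157 and 167 in control at 48 h and 45.7, 42.2 and 42.7 with DMF, so most of its distance from control at 48 h was the rise of untreated culture. A further set stayed close to the start with DMF while control rose: NFKB2, ICAM1, NFKBIZ and TNIP1 had log2 fold changes of -0.19, -0.12, -0.05 and 0.02 with DMF and of 1.10, 0.84, 0.80 and 0.62 in control. Of these 4, NFKB2 passed the test with DMF (adjusted p = 0.0087, but 0.26 on TPM), and TNIP1 passed on TPM (log2 difference 0.17, adjusted p = 0.0068).

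The promoters of 4 genes that were lower with DMF, REL not in every fit, chosen after the matches were seen, are shown because each holds the kB string (GGGA, any base, then TTTCC) within the 100 bases before its first listed RefSeq start (GRCh38.p14). Capitals mark the match, which can lie on either strand, so it may read as its reverse complement.
NFKBIA (chr14:35404750-35404849, minus strand): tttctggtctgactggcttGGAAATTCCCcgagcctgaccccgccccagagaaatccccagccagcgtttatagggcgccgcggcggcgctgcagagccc
TNFAIP3 (chr6:137867159-137867258, plus strand): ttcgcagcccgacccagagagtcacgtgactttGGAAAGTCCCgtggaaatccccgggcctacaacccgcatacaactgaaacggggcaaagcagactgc
NFKB1 (chr4:102501259-102501358, plus strand): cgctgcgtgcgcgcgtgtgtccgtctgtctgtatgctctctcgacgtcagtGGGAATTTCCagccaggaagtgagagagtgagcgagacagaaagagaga
REL (chr2:60881474-60881573, plus strand): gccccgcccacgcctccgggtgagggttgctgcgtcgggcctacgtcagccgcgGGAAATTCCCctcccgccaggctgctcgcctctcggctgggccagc
In the 250 bases before the start, the string was found for 7 of the 32 NF-kB list genes with a listed promoter, against 0.582% of all 9966 promoters. The 7 were NFKB1, REL, NFKBIA, NFKBIZ, TNFAIP3, IL6 and LTB, and they did not all fall: NFKBIZ and IL6 did not pass the test and LTB rose 3.59-fold. The list was built from known NF-kB targets and 9 strings were searched in all, so this share is a description.

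Some NF-kB genes rose past the start. CCL3 and CCL4, genes of neighbouring T cell and monocyte-attracting chemokines, went from 1.75, 1.64 and 2.52 CPM to 23.8, 19.4 and 18.7 and from 3.04, 2.68 and 1.94 to 21.8, 21.3 and 22.8. Every treated library was above every control of either time, and the rises were 9.82-fold and 8.66-fold (adjusted p = 3e-12 and 1.3e-12). The near-identical copies CCL3L3 and CCL4L2 also rose, 14.1-fold and 8.55-fold, and reads may be shared between copies, so which copy rose is uncertain. TRAF1, an adaptor of TNF receptors, and the lymphotoxin gene LTB rose 3.22-fold and 3.59-fold with DMF and 2.73-fold and 4.8-fold in control.

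**Figure D3:**
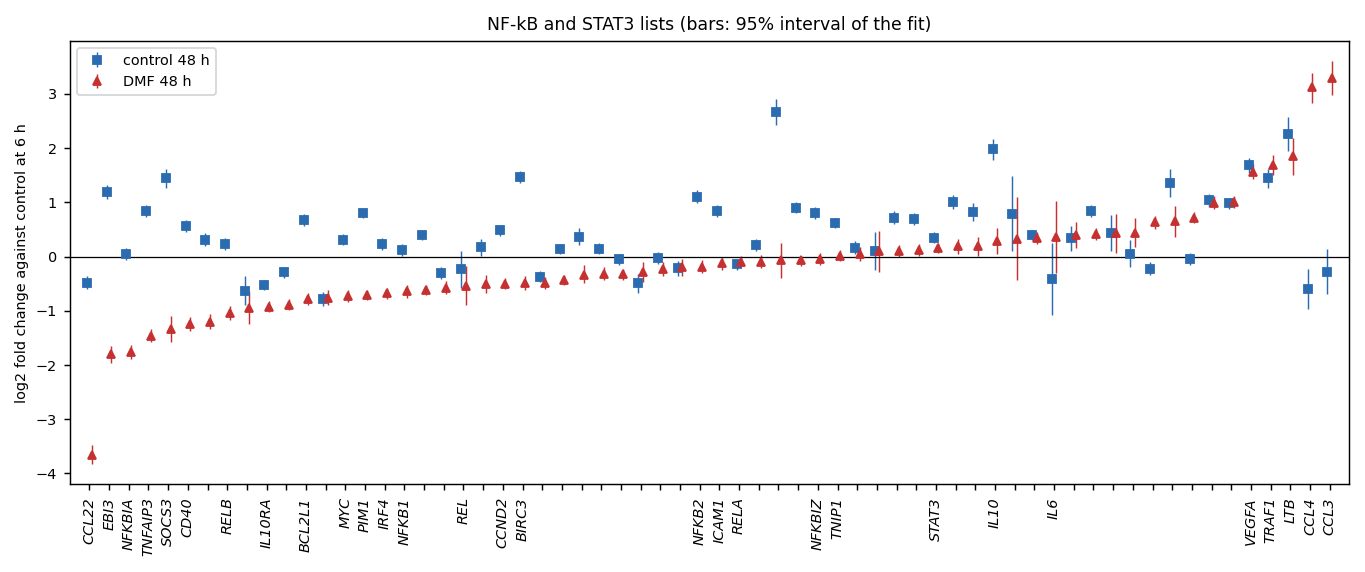
Log2 fold change (vertical axis; genes named in the text are labelled) against control at 6 h for the 64 measured genes of the NF-kB and STAT3 lists, ordered by the value with DMF, for DMF at 48 h (triangles) and control at 48 h (squares), with 95% intervals of the fit. CCL22 is lowest with DMF (-3.65) and CCL3 highest (3.30), and control lies above DMF for most genes on the left.

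Of 30 measured STAT3 genes, 10 were higher and 12 lower with DMF (median -0.01), near the shares of all genes tested (35.5% and 34.9%), whereas control at 48 h had 20 higher and 6 lower (median 0.36). SOCS3, the feedback inhibitor that STAT3 induces (chromosome 17, 78356778 to 78360077), was at 7, 7.54 and 7.24 CPM at 6 h, 18.9, 20.3 and 20.1 in control at 48 h and 3.26, 2.87 and 2.81 with DMF. Its groups did not overlap, and DMF was 2.53-fold (log2 fold change -1.34 ± 0.11, adjusted p = 6.8e-09) below the start and 6.89-fold below control at 48 h. PIM1, a survival kinase gene, had 1951, 1955 and 1870, 3293, 3377 and 3384 and 1172, 1193 and 1165 CPM in the same order, 1.64-fold below the start (adjusted p = 1.2e-10).

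The cytokine and receptor genes of this pathway did not all follow. IL10, the cytokine, was at 4.41, 4.5 and 4.07 CPM at 6 h and 5.87, 5.38 and 5.03 with DMF, and at 17.4, 16.9 and 16.8 in control at 48 h. The difference of DMF from the start was 1.22-fold (adjusted p = 0.028), a call lost in DESeq2 (adjusted p = 0.098), without a low-count filter (0.06) and without replicate 3 of control at 6 h (0.11) or replicate 2 of DMF (0.12). IL10RA, a receptor subunit for it, was 1.89-fold below the start with DMF and 1.43-fold below it in control. STAT3 itself was at 187 ± 1.48 CPM (mean ± SD, n = 3) at 6 h and 207 ± 8.32 with DMF, a log2 fold change of 0.16 ± 0.05 (adjusted p = 0.0076, or 0.059 without replicate 2 of DMF). BCL2L1, which encodes the survival protein BCL-xL, had 112, 110 and 109 CPM at 6 h, 170, 188 and 167 in control at 48 h and 65.2, 64.9 and 62.5 with DMF, 1.72-fold below the start (adjusted p = 1e-09).

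MYC had 281, 267 and 271 CPM at 6 h, 347, 341 and 330 in control at 48 h and 179, 158 and 166 with DMF, 1.64-fold below the start (adjusted p = 9.7e-10). IRF4, on which activated B-cell-like lymphoma depends, had 640, 623 and 636, 780, 687 and 774 and 395, 400 and 392 CPM (1.6-fold below the start, adjusted p = 2.2e-09). CCND2, a D-type cyclin, had 658, 704 and 655, 901, 931 and 990 and 471, 479 and 479 CPM (1.41-fold, adjusted p = 6.7e-08). For all 3 the DMF libraries lay below the start and those of control at 48 h above it.

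Of 43 B cell genes, 16 were higher and 17 lower with DMF (median -0.00), shares near those of all genes tested (35.5% and 34.9%), and on TPM the counts were 20 and 11. The pan-B genes CD79B and MS4A1 had log2 fold changes of -0.00 ± 0.06 and 0.06 ± 0.05 that did not pass the test, although MS4A1 passed it on TPM (0.21, adjusted p = 0.009) and had fallen 1.6-fold in control. CD79A, the other signalling chain of the B cell receptor, was at 1005, 1015 and 999 CPM at 6 h, 914, 1120 and 1013 in control at 48 h and 1870, 1929 and 1973 with DMF, 1.91-fold above the start (adjusted p = 1.9e-10). The controls of both times overlapped and DMF stood above them.

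Surface and regulatory genes of B cells moved in both directions. FCER2, the low-affinity IgE receptor CD23, was at 8.54, 8.77 and 7.63 CPM, 4.12, 4.58 and 4.42 and 33.6, 30.1 and 31.1 in the usual order of groups, 3.75-fold above the start (adjusted p = 2.2e-12). CD52, a glycoprotein of mature lymphocytes, rose 3.01-fold. SPIB, an ETS factor of activated B-cell-like lymphoma, went from 1088, 1101 and 1081 CPM to 506, 511 and 521 (2.12-fold lower, adjusted p = 2.5e-12), with 881, 982 and 909 in control at 48 h. CD24 was 3.15-fold below the start. CD22, an inhibitory co-receptor, was at 67.5, 74.3 and 71.6 CPM at 6 h and 70.1, 71.7 and 75.1 with DMF, while control had risen to 217, 222 and 220.

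Antigen presentation was also split between genes. HLA-B was at 659, 661 and 668 CPM at 6 h, 592, 696 and 604 in control at 48 h and 261, 268 and 300 with DMF, 2.38-fold below the start (adjusted p = 1.2e-11), and NLRC5, the activator of class I genes, was 1.97-fold below it (adjusted p = 2.9e-10). Of 20 class I and immunoproteasome genes, 10 fell and 3 rose with DMF, against 3 and 12 in control at 48 h. That balance rested on the scale, since on TPM 6 fell and 7 rose with DMF. PSMB8, an immunoproteasome subunit, fell from 40.1 to 27 CPM with DMF and rose to 64.3 in control. Reads of HLA genes can be shared between related loci and alleles, and how they were assigned was not given in the sources used here.

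Among class II genes 7 of 17 rose and 7 fell, beside 35.5% and 34.9% of all genes tested. HLA-DPA1 and HLA-DQA1 were 2.13-fold and 2.29-fold below the start, while CIITA, the activator of class II genes, was 1.65-fold above it (adjusted p = 7.3e-09). IFI30, the lysosomal thiol reductase of antigen processing, had 389, 375 and 366 CPM at 6 h, 236, 261 and 230 in control at 48 h and 812, 778 and 814 with DMF, 2.13-fold above the start (adjusted p = 6.5e-12). Of 32 interferon-stimulated genes, 11 rose and 10 fell, near the shares of all genes tested (35.5% and 34.9%). MX1, an antiviral GTPase, fell from 23, 21.1 and 25.2 CPM to 3.91, 5.47 and 5.62 and to 7.46, 7.57 and 7.52 in control, whereas BST2, which tethers virions, rose 2.55-fold with DMF and 1.65-fold in control.

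Most hypoxia-inducible genes rose with DMF, to a lower median than in untreated culture. Of 26 hypoxia-inducible genes, 21 rose and 4 fell with DMF (median 0.89), and 24 rose and 1 fell in control at 48 h (median 1.66). DMF had 21 of them below control of the same time and 2 above. PFKFB4, which makes the activator of phosphofructokinase, had 3.32, 3.82 and 3.82 CPM at 6 h, 157, 161 and 161 in control at 48 h and 46, 54.8 and 55.2 with DMF. The treated level was 14.7-fold above the start (adjusted p = 5.7e-16) and 2.98-fold below control at 48 h.

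How far DMF cells followed untreated culture differed between genes. SLC16A3, the lactate exporter MCT4, had 45.6, 47.2 and 39.6 CPM at 6 h, 367, 446 and 405 in control at 48 h and 345, 371 and 398 with DMF, so that the 2 groups of 48 h overlapped (log2 difference -0.12 ± 0.07, adjusted p = 0.15). VEGFA, the angiogenic growth factor, rose 2.96-fold with DMF and 3.22-fold in control. BNIP3, a mitophagy receptor, rose 3.44-fold with DMF and 5.88-fold in control. DDIT4, an inhibitor of mTORC1, had 21.1, 24.9 and 17.2, 271, 327 and 308 and 140, 159 and 152 CPM in the usual order. ADM, the gene of adrenomedullin, was higher with DMF than in control, at 9.38, 8.59 and 8.02 CPM at 6 h, 37.2, 39.8 and 38 in control and 64.6, 69.8 and 75.6 with DMF, 8.23-fold above the start (adjusted p = 2.8e-15).

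Cholesterol genes rose in the same graded way. Of 30 measured genes, 27 rose and 3 fell with DMF (median 0.52), and 26 rose and 2 fell in control (median 0.74). HMGCS1, an early enzyme of the pathway, went from 118, 122 and 120 CPM to 153, 150 and 148 with DMF and 218, 209 and 213 in control, and INSIG1, the brake on SREBP, from 110 to 213 and 343 CPM. ABCG1, a sterol exporter driven by liver X receptors rather than SREBP, moved differently: 0.945, 0.818 and 1.13 CPM at 6 h, 1.3, 0.872 and 1.39 in control at 48 h, where it did not pass the test (adjusted p = 0.29), and 8.8, 6.77 and 6.67 with DMF. The difference between the 2 groups of 48 h was 5.83-fold (adjusted p = 1.7e-09).

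Ribosome biogenesis genes fell by the largest list median. Of 39 measured members, 37 fell and 2 rose with DMF (median -0.99), 19 of them falling at least 2-fold, and in control at 48 h 36 fell and 0 rose (median -1.15). Between the groups of 48 h, DMF had 17 members higher and 9 lower. UTP20, a component of the small-subunit processome, had 230, 221 and 237 CPM at 6 h, 46.2, 37.2 and 39.6 in control at 48 h and 62.6, 68.4 and 62.5 with DMF, 3.53-fold below the start (adjusted p = 5e-13). MYBBP1A, a nucleolar regulator, had 213, 223 and 210, 62, 66.6 and 62.1 and 86.4, 77.5 and 81.6 CPM. In both genes DMF lay between the start and control at 48 h.

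Cytosolic ribosomal proteins went the other way from untreated culture. With DMF, 64 of 76 members were lower than at 6 h and 0 were higher (median -0.32), none by 2-fold, and in control at 48 h 69 were higher and 1 lower (median 0.29). DMF was lower than control at 48 h for 75 of 76 (median -0.63). RPS6, a protein of the small subunit, had 2969, 2784 and 2931 CPM at 6 h, 3423, 3540 and 3041 in control and 1886, 1713 and 1839 with DMF. The list took 9.73% to 9.86% of all counts at 6 h, 12.2% to 13.7% in control at 48 h and 8.54% to 8.79% with DMF, while genes of ribosomal RNA took 1.0% to 1.09%, 0.728% to 0.793% and 1.29% to 1.45%. Exact two-sided permutation tests of each DMF difference gave p = 0.1, the smallest that 3 against 3 libraries allow. Whether the share of ribosomal RNA has a part in the gene values was not tested. In a fit of all 24 libraries, whose spread is larger, 0 of the 76 passed the test, with the median at -0.34.

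**Figure D4:**
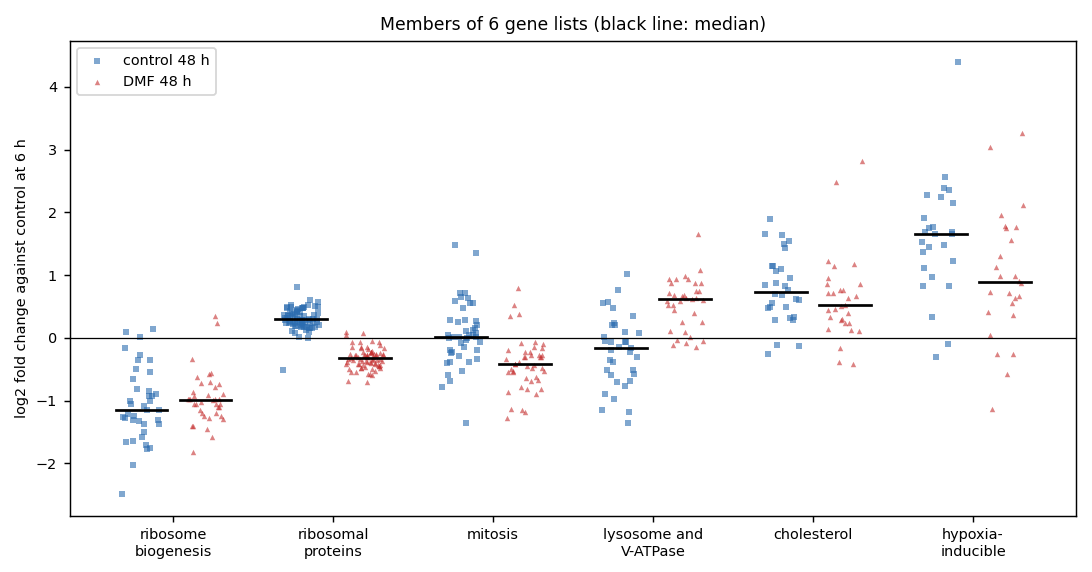
Log2 fold change against control at 6 h for each measured member of 6 gene lists, for control at 48 h (squares) and DMF at 48 h (triangles), with the median of each as a black line. Ribosomal proteins lie around 0.29 in control and -0.32 with DMF, and lysosomal genes around -0.16 and 0.62.

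Proliferation genes were lower. Of 46 DNA replication genes, 34 fell and 5 rose with DMF (median -0.40), against 26 and 12 in control at 48 h (median -0.15). Of 45 mitosis genes, 38 fell and 4 rose with DMF (median -0.42), against 15 and 16 in control (median 0.02). DMF had 40 of the mitosis genes below control of the same time and 1 above. PCNA, the clamp of DNA polymerases, had 443, 429 and 442 CPM at 6 h, 307, 309 and 260 in control at 48 h and 223, 216 and 227 with DMF, 1.97-fold below the start (adjusted p = 1.4e-10). PLK1, a mitotic kinase, had 401, 391 and 401, 309, 308 and 286 and 182, 180 and 179 CPM, 2.2-fold below the start (adjusted p = 1.3e-12).

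Single cycle genes fell to different extents. MKI67, the proliferation antigen, was 1.23-fold below the start (adjusted p = 0.001, or 0.21 on the TPM scale). MCM7, a subunit of the replicative helicase, was 2.28-fold below it and CCNB1, cyclin B1, 2.27-fold. CDC25A, a phosphatase that drives S phase entry, fell 2.43-fold with DMF and 2.54-fold in control. CDKN1A, the inhibitor p21 (chromosome 6, 36676460 to 36687339), had 22.1, 20.2 and 20.8 CPM at 6 h, 59.2, 56.9 and 58.2 in control at 48 h and 72.1, 72.8 and 80.3 with DMF, 3.6-fold above the start (adjusted p = 9.4e-14). Of 33 p53 targets and cell cycle brakes, 18 rose and 10 fell with DMF (median 0.36) and 19 rose and 10 fell in control (median 0.35). Among those that fell, AEN, a p53-induced nuclease, was 2.54-fold below the start with DMF and 2.61-fold in control.

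Lysosomal genes as a list also ended above the start with DMF and not in control. Of 35 measured genes, 27 rose and 1 fell with DMF (median 0.62), against 9 and 19 in control at 48 h (median -0.16), and DMF had 32 above control of the same time and 0 below. PSAP, the precursor of the saposins that assist sphingolipid breakdown (chromosome 10, 71816298 to 71851375), was at 364, 359 and 361 CPM at 6 h, 329, 359 and 344 in control at 48 h and 1145, 1127 and 1154 with DMF. The controls of both times overlapped, and DMF was 3.16-fold (log2 fold change 1.66 ± 0.05, adjusted p = 1.2e-14) above the start. ASAH1, acid ceramidase, rose 2.12-fold, ATP6V1A, the catalytic subunit of the proton pump, 1.92-fold and the sialidase gene NEU1 1.98-fold. ASAH1 and ATP6V1A were also called higher in control at 48 h than at 6 h. On TPM those 2 calls in control were lost (log2 differences 0.07 and 0.14, adjusted p = 0.19 and 0.061). CTSB, cathepsin B, had 92.4, 93.1 and 92.1 CPM at 6 h, 84.5, 92.2 and 86.9 in control and 167, 168 and 172 with DMF.

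A further 4 lysosomal genes, named for their promoters after their values were seen, were near the start or above it with DMF while control fell. LAMP1, a membrane glycoprotein, was at 297, 298 and 300 CPM at 6 h, 131, 141 and 130 in control at 48 h and 310, 317 and 325 with DMF. CTSA, the protective protein cathepsin A, had 152, 149 and 149, 57.8, 61.8 and 55.6 and 152, 151 and 154 CPM, and the pump subunit gene ATP6V0D1 had 163, 162 and 156, 69.2, 78.8 and 64.7 and 170, 149 and 153. None of these 3 passed the test against 6 h (adjusted p = 0.094, 0.7 and 0.56), and all were above control at 48 h (2.37-fold, 2.61-fold and 2.19-fold). On TPM, LAMP1 (0.23, adjusted p = 0.00013) and CTSA (0.17, adjusted p = 0.0025) were above the start. MCOLN1, a calcium channel of the lysosome, had 12.4, 12.6 and 13.3, 6.97, 7.48 and 6.07 and 21.8, 18.9 and 19.8 CPM, 1.54-fold above the start (adjusted p = 6.3e-06).

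Each of the 4 promoters holds TCACGTGA, the palindromic core of the element bound by TFEB and its relatives, which drive lysosomal genes. The windows are again the 100 bases before the first listed RefSeq start (GRCh38.p14) on the strand of the gene, with matches in capitals.
LAMP1 (chr13:113297139-113297238, plus strand): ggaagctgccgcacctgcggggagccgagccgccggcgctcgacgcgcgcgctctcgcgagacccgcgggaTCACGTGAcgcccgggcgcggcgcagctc
CTSA (chr20:45891235-45891334, plus strand): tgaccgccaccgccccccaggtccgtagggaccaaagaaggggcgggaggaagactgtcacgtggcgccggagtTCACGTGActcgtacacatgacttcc
MCOLN1 (chr19:7522524-7522623, plus strand): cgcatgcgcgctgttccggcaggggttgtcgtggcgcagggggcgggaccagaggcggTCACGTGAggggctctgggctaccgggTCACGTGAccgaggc
ATP6V0D1 (chr16:67481158-67481257, minus strand): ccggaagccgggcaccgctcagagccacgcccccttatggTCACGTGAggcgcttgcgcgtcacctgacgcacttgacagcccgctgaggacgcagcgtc
The string occurred in the 250 bases before the start of 6 of the 21 lysosomal genes with a listed promoter and of 1.75% of all 9966 promoters. The other 2 were GAA and ATP6V1G1, which rose 1.84-fold and 1.51-fold with DMF and 2.03-fold and 1.14-fold in control. MCOLN1 has the string at 2 places of its window. The string contains the shorter E-box CACGTG, which other factors of the same class share.

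Autophagy genes rose in part. Of 32 measured members, 21 rose and 7 fell with DMF (median 0.37), against 14 and 11 in control (median 0.05). GABARAPL1, a ubiquitin-like protein of the autophagosome, had 9.73, 9.59 and 8.5 CPM at 6 h, 6.65, 8.22 and 9.59 in control at 48 h and 26.1, 33.4 and 28.6 with DMF, 3.28-fold above the start (adjusted p = 3.5e-10). WIPI1, which binds the forming membrane, had 2.31, 1.82 and 2.26, 7.04, 6.79 and 5.64 and 13, 16.1 and 15.4 CPM, 7.14-fold above the start (adjusted p = 3.6e-12). SQSTM1, the cargo receptor p62 and itself an NRF2 target, had 814, 816 and 801 CPM at 6 h, 275, 309 and 293 in control and 963, 1022 and 1034 with DMF. TFEB itself fell 1.22-fold with DMF (adjusted p = 0.0004) and was also called lower in control at 48 h than at 6 h. In a fit of all 24 libraries neither fall passed the test (adjusted p = 0.5 with DMF and 0.63 in control).

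Early-response factors were higher. Of 27 AP-1 and EGR family genes and their companions, 19 rose and 3 fell with DMF (median 0.45), against 19 and 2 in control at 48 h (median 0.39). EGR3 had 10.9, 11.1 and 10.4 CPM at 6 h, 20.4, 19.1 and 20.8 in control and 48.9, 48.5 and 50.9 with DMF, 4.59-fold above the start (adjusted p = 3e-14). NR4A1, an orphan nuclear receptor induced by antigen receptor signals, had 16.8, 17.6 and 15.9, 37.1, 41.9 and 44 and 72.1, 76.1 and 73.5 CPM, 4.44-fold above the start (adjusted p = 7.1e-14). EGR1 rose 3.73-fold with DMF and 2.72-fold in control.

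Most chaperone genes were above untreated culture of the same time. Of 31 heat shock genes, 18 fell and 5 rose with DMF (median -0.18), against 23 and 4 in control (median -0.60), and DMF had 24 above control of the same time and 6 below. On TPM, 11 were below the start and 10 above it (median -0.02). HSPA8, the constitutive chaperone HSC70, lay below both controls: 7944, 7544 and 7954 CPM at 6 h, 2987, 2945 and 2633 in control at 48 h and 2171, 1870 and 1826 with DMF. It was 4-fold below the start (adjusted p = 5e-14). DNAJB1, a co-chaperone induced by heat shock factor, had 167, 161 and 160, 71, 75.1 and 64.6 and 122, 115 and 117 CPM and so lay between them. HSPB1, the small heat shock protein HSP27, was above the start with DMF and below it in control, at 88, 82.4 and 82.6, 46.8, 50.7 and 47.1 and 174, 168 and 177 CPM. The inducible gene HSPA1B, at 19, 21.5 and 21.1 CPM at 6 h and 26.4, 21.2 and 22 with DMF, did not pass the test, and its near-identical copy HSPA1A makes its counts uncertain. HSPA1A, with 10, 9 and 4 counts at 6 h and 0, 27 and 30 with DMF, was called higher with DMF. That call was lost in DESeq2 (adjusted p = 0.16) and on TPM (adjusted p = 0.32).

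Stress genes of ATF4 moved both ways, and more genes of the endoplasmic reticulum (ER) rose than fell. Of 39 ATF4 and amino acid genes, 13 rose and 16 fell with DMF (median -0.03), near the shares of all genes tested (35.5% and 34.9%). TRIB3, a pseudokinase, was at 63.6, 59.2 and 62.4 CPM at 6 h and 64.6, 68.5 and 67.5 with DMF (adjusted p = 0.052), and CHAC1, a glutathione-degrading enzyme, at 4.09, 4.04 and 4.24 and 1.96, 3.59 and 2.52 CPM. CHAC1 was 1.39-fold lower (adjusted p = 0.023), a call lost without replicate 3 of control (0.061) or of DMF (0.2) and in DESeq2 (0.053). Of the serine and one-carbon enzymes, MTHFD1L, PSAT1 and MTHFD2 were 2.93-fold, 2.46-fold and 1.89-fold below the start with DMF, where MTHFD2 had not fallen in control (log2 fold change 0.09). DDIT3, the death-linked factor CHOP, rose 2.44-fold with DMF and 2.79-fold in control. Of 20 aminoacyl-tRNA synthetases 16 fell and 3 rose with DMF, and 15 fell and 5 rose in control. Of 26 ER stress genes 16 rose and 2 fell with DMF (median 0.27), against 7 and 10 in control (median -0.07), and CRELD2, an ER chaperone partner, was 2.25-fold above the start. HSPA5, the ER chaperone BiP, had 731, 731 and 731 CPM at 6 h and 692, 672 and 678 with DMF, not past the threshold (adjusted p = 0.055), and 372, 370 and 341 in control at 48 h. HSPA5 did pass, below the start, in DESeq2 (adjusted p = 0.034) and in a fit of only the 2 groups compared (adjusted p = 0.0065).

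Genes that moved in opposite directions in the 2 groups of 48 h were counted among the 13128 tested. Both changes had to pass the threshold against 6 h, with at least 1 CPM in the highest group. There were 445 with DMF above and control below the start, and 540 with DMF below and control above. Of the former, MAP1A, a microtubule-associated protein, had 2.27, 1.95 and 2.52 CPM at 6 h, 0.352, 0.343 and 0.709 in control at 48 h and 12.7, 18.7 and 19.1 with DMF. Of the latter, TMPRSS6, a serine protease that lowers hepcidin in liver, had 22.2, 22.4 and 21.9, 89, 107 and 103 and 7.17, 5.88 and 5.44 CPM, and ADD2, a cytoskeletal adducin, had 1.89, 1.32 and 1.91, 7.14, 7.16 and 7.86 and 0.978, 0.166 and 0.439. The 3 groups were separate in each of these genes, and TMPRSS6 was 3.85-fold below the start with DMF (adjusted p = 9.5e-12) and 4.49-fold above it in control.

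Genes at the level of the start with DMF while control had moved away were counted where the 95% interval of DMF against 6 h lay within 0.32 of 0 on the log2 scale. Control at 48 h also had to pass the threshold against both 6 h and DMF at 48 h, with at least 1 CPM in the highest group. Of the 13128 genes tested, there were 616 whose control level rose and 761 whose control level fell. MGAT3, a glycosyltransferase, was at 13.7, 15 and 13.1 CPM at 6 h, 81.6, 91 and 95.5 in control at 48 h and 14.3, 15.3 and 15.5 with DMF. FCRL1, an Fc receptor-like protein of B cells, had 11.8, 12.4 and 10.1, 39.2, 33.4 and 39.3 and 11.1, 11.8 and 11.7 CPM. On the falling side, ZMPSTE24, the protease that matures lamin A, had 106, 107 and 109, 29, 25.2 and 21.2 and 113, 93.8 and 94.5 CPM, and BIK, a death-promoting BCL2 relative, had 27.1, 25.5 and 27.5, 7.18, 8.97 and 7.49 and 29.3, 27.6 and 26. In all 4 genes the DMF and 6 h libraries overlapped and control at 48 h stood apart.

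Among the 10 largest falls against the start, some were absent from untreated culture and some were shared with it. KCNA3, the lymphocyte potassium channel Kv1.3 (chromosome 1, 110672465 to 110675033), had 47.9, 44.5 and 48.7 CPM at 6 h, 51.1, 42.3 and 58.9 in control at 48 h, overlapping with it, and 4.24, 2.35 and 3.37 with DMF. It was 16.1-fold (log2 fold change -4.01 ± 0.15, adjusted p = 2.7e-13) below the start. CX3CL1, the chemokine fractalkine, had 11.9, 10.7 and 11.4, 9.01, 11.8 and 11.2 and 0.978, 1.1 and 0.936 CPM and was 11.1-fold below the start (adjusted p = 3.7e-12). IL12A, the p35 subunit of interleukins 12 and 35, fell with DMF and in control, from 3.74, 3.5 and 3.52 CPM to 0.326, 0.11 and 0.263 and 0.704, 0.187 and 0.369.

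Among the 10 largest rises, OSGIN1 and MYADML2 had more than 10 counts in every library. MYADML2, a membrane protein of the MARVEL family, had 3.67, 2.95 and 2.81 CPM at 6 h, 15.4, 15.9 and 16 in control at 48 h and 46.3, 47.8 and 48.6 with DMF, 15.2-fold above the start (adjusted p = 9.4e-16). Others rested on few counts in control at 6 h, so no fold is given for them. GDF15, a stress-induced cytokine, had 3, 1 and 0 counts at 6 h, 6, 11 and 6 in control at 48 h, and 8, 50 and 50 with DMF, of which the first library is the shallow one. CDH3, P-cadherin, had 1, 1 and 1 counts at 6 h, 17, 23 and 25 in control at 48 h, and 8, 46 and 32 with DMF.

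**Figure D5:**
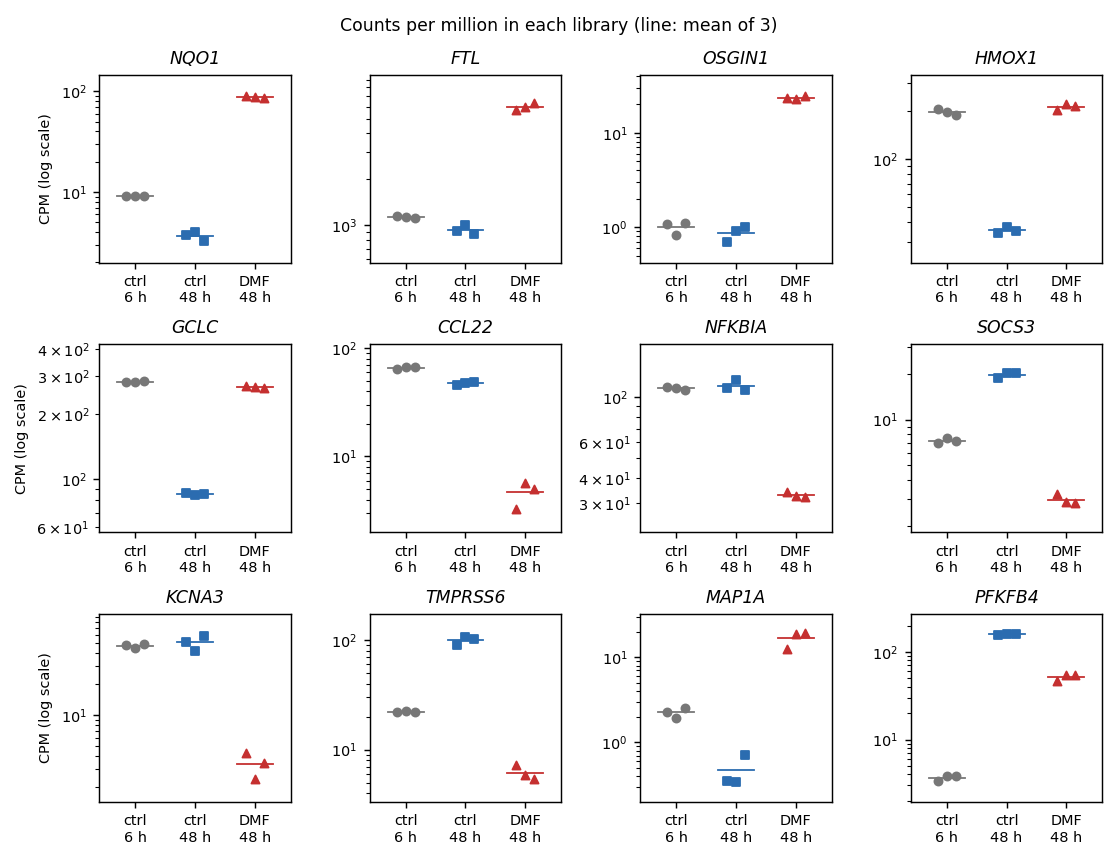
CPM on a log scale in each of the 3 libraries of control at 6 h (circles), control at 48 h (squares) and DMF at 48 h (triangles) for 12 genes, with a line at each mean. NQO1, FTL and OSGIN1 lie above both controls, HMOX1 and GCLC lie at the level of 6 h, and CCL22, NFKBIA, SOCS3, KCNA3 and TMPRSS6 lie below both controls.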

How the data were processed

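RNA-seq of total RNA gave 1 gene table per library. The deposited tables hold unnormalized expected counts for each gene and TPM and FPKM values scaled by the authors' software for length and depth, per the file headers. The submitters' processing notes name HISAT2, HISAT, RSEM and GRCh38.p12; versions and the strand of counting were not given in the sources used here. Expected counts were rounded. The 9 libraries of control at 6 h and 48 h and DMF at 48 h were fitted together in edgeR 4.0.16 (R 4.3.3) with filterByExpr (13128 of 21831 genes), TMM scaling, quasi-likelihood F-tests and Benjamini-Hochberg adjustment over all genes tested, called at an adjusted p under 0.05. The common dispersion was 0.00298, with 6 residual degrees of freedom. CPM are counts scaled to library size after TMM. TPM served as a check (limma 3.58.1 on log2(TPM + 1) or log2(TPM + 0.1), without TMM scaling) and FPKM for no result. Shares of counts were compared with exact permutation tests over libraries. Further alternatives were DESeq2 1.42.0 and its size factors, no low-count filter, other sets of libraries, a replicate block and leaving out each library. Tested on simulated data of this comparison with 12629 genes, the model called 86.6% of 67 genes changed 1.5-fold and 97% of 67 changed 2-fold. It called 100% of 66 changed 4-fold, and made 19 false calls. The simulated counts used the fitted dispersions, and all other genes were left unchanged in all 3 groups. The simulation therefore cannot show how scaling and false calls behave where most genes move, as in these data.

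The comparison, the 34 gene lists and the panel of 50 genes were chosen with earlier results of these data known. Genes were named from the panel, the 10 highest and 10 lowest changes, the members of each list that had the smallest p (at most 5), the 5 highest and 5 lowest changes in control, and the 5 leading genes in each direction that moved oppositely or returned to the start, with at least 1 CPM. RELB, RELA, REL, NFKB1, NFKB2, ICAM1, NFKBIZ, TNIP1, TRAF1, LTB, CCL3L3, CCL4L2, LAMP1, CTSA, ATP6V0D1, MCOLN1, GAA, ATP6V1G1, SQSTM1 and TFEB were added after their values were seen. Gene coordinates are from GENCODE v29 (GRCh38), matched by symbol, and promoters from RefSeq. Some genes are not reported here.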

Additional observations from a re-analysis of the deposited data

How the results depend on the processing

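The counts of genes past the threshold depended most on which libraries set the spread. In a fit of all 24 libraries, 2538 genes were higher and 2312 lower with DMF at 48 h than in control at 6 h, 2898 and 2740 in control at 48 h against 6 h, and 1785 and 1680 between the groups of 48 h. Without replicate 3 of both groups at 12 h, the 22 libraries gave 4847 and 4823 for the first comparison. On TPM the genes lower with DMF than in control at 48 h numbered 2000, with a pseudocount of 0.1 1968 and with no filter 2001, and the cause was not tested. There the difference of STAT3 between these groups turned to 0.02 and that of TFEB to 0.16 under each of the 3 TPM settings. List medians of DMF against 6 h that changed sign on TPM, where the median of all genes was 0.10, were those of ATF4 genes (0.11), STAT3 genes (0.15), interferon genes (0.06), class I genes (0.02) and B cell genes (0.11). Leaving out 1 library at a time gave 4218 to 4941 higher and 4143 to 4903 lower genes for DMF against 6 h, 4742 to 5117 and 4508 to 4888 for control, and 3701 to 4489 and 3425 to 4150 between the groups of 48 h. Without replicate 2 of control at 48 h, NRF2 targets that fell with DMF numbered 5 and ferroptosis genes that fell 8. Without replicate 3 of DMF, 3 ferroptosis genes and 2 hypoxia-inducible genes fell and 3 BCL2 family genes rose, also 3 without replicate 3 of control at 6 h. Without replicate 2 of DMF, 6 STAT3 genes rose. The lysosomal genes that fell numbered 0 without replicate 1 of control at 6 h or replicate 3 of DMF, and 2 without replicate 2 of control at 48 h or replicate 1 of DMF. Same-numbered libraries of different groups had correlations of their deviations between -0.06 and 0.05, against -0.081 to 0.085 for differently numbered ones. Deviations from means of 3 libraries cannot exclude a shared culture or batch. With a replicate block, 4567 genes were higher and 4532 lower. Among 146 genes of the text, 145 kept their side of the threshold against 6 h under this replicate block, all but HSPA1A (adjusted p = 0.087). With all 24 libraries 123 kept it and 23 lost their call, and on TPM 128 to 129 kept it, 5 to 6 lost their call and 12 gained one. With only the 2 groups compared, 137 kept it and 8 gained a call. DMF replicate 1 had 2870751 counts, which limits what can be detected for genes of low level.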

Other observations

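Many genes of mitochondrial respiration were higher in treated cells than at the start. Of 43 measured genes of oxidative phosphorylation, 25 rose and 4 fell with DMF at 48 h (median 0.27), against 34 and 3 in control at 48 h (median 0.31). Between the groups of 48 h, DMF had 10 of them higher and 11 lower (median 0.05), beside 32.6% and 30.1% of all genes tested. NDUFB3, a subunit of complex I, was at 21.8, 22.8 and 21.5 CPM in control at 6 h, 28.8, 35 and 29.3 in control at 48 h and 47.3, 48.2 and 47.6 with DMF (2.17-fold above the start, adjusted p = 3.6e-10). MPC2, a subunit of the mitochondrial pyruvate carrier, had 50, 51.6 and 48.7 CPM in control at 6 h, 63.5, 72.7 and 65.4 in control at 48 h and 131, 123 and 124 with DMF (2.5-fold, adjusted p = 2.7e-12). In both genes DMF lay above both controls. Of 26 genes of the tricarboxylic acid cycle, 8 rose and 6 fell with DMF, beside 35.5% and 34.9% of all genes tested. On TPM, 18 rose and 3 fell. CS, citrate synthase, was 1.36-fold below the start.

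Genes of the BCL2 family gave 6 rises and 4 falls among 16 measured, beside 35.5% and 34.9% of all genes tested. BCL2, the survival gene, had 342, 350 and 354 CPM at 6 h, 549, 478 and 588 in control at 48 h and 520, 596 and 567 with DMF, so both groups of 48 h were above the start. BBC3, which encodes the death promoter PUMA, had 1.43, 1.27 and 1.84 CPM at 6 h, 14.8, 18.5 and 17.4 in control at 48 h and 4.57, 4.92 and 5.3 with DMF, and rose in both groups of 48 h. BID, which links death receptors to mitochondria, was below the start with DMF and above it in control. Its levels were 136, 128 and 136 CPM at 6 h, 162, 175 and 156 in control at 48 h and 96.9, 98.9 and 102 with DMF.

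Of 21 plasma cell genes, 10 rose and 4 fell with DMF (median 0.17), beside 35.5% and 34.9% of all genes tested. SLAMF7, a surface receptor of plasma cells, was 1.44-fold above the start, and DERL3, an ER degradation factor, was 1.61-fold below it and 2.32-fold above it in control. Of 12 measured metallothionein and zinc transport genes, 5 rose and 4 fell with DMF (median 0.03), beside 35.5% and 34.9% of all genes tested. Among those that rose, the metallothionein genes MT1X and MT2A, which bind zinc and copper, rose 2.14-fold and 1.74-fold (adjusted p = 1.5e-08 and 3.1e-07). In a fit of all 24 libraries neither passed the test (adjusted p = 0.07 and 0.2). MT1X also rose in control at 48 h, 1.29-fold, and MT2A did not pass the test in control.

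Some genes were near 0 in a control group, so only their counts are given. DUOXA2, a maturation factor of a dual oxidase, had 0, 0 and 0 counts in control at 6 h, 59, 62 and 65 in control at 48 h, and 0, 0 and 3 with DMF. Its partner DUOX2 had 12, 9 and 14 counts, then 122, 123 and 179, then 0, 5 and 3. CYP4F11, a fatty acid hydroxylase, had 8, 3 and 3 counts at 6 h, 0, 0 and 0 in control at 48 h, and 6, 44 and 45 with DMF.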
